A study of Mus musculus with 2 samples.

Results

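The erythroid cells of this single-cell RNA sequencing series were the barcodes in which hemoglobin transcripts made up a large part of the RNA. A barcode, the tag of 1 droplet, was taken as an erythroid cell when it held at least 1000 UMIs (unique molecular identifiers, each counting 1 captured transcript), when Hba-a1, Hba-a2, Hbb-bs and Hbb-bt together held at least 20% of its UMIs, and when it held at least 1 UMI of Alas2 and 0 UMIs of the endothelial gene Cdh5. By this rule 87 of 11273 barcodes were erythroid cells, 32 of 6814 in the control library and 55 of 4459 in the Flcn iΔEC library. Because the cells were chosen by their own hemoglobin, Alas2 and Cdh5 counts, the levels of the hemoglobin genes and of Alas2 describe how the cells were chosen and are no findings.

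The study profiled CD31+ cells of the mesentery of C57BL/6 pups at postnatal day (P) 8, with 1 library for control pups and 1 for pups lacking Flcn, the gene of the tumor suppressor folliculin, in endothelial cells (Flcn iΔEC: floxed Flcn and the tamoxifen-inducible Cdh5-BAC-CreERT2, in which the endothelial Cdh5 promoter drives Cre). Each library pooled cells of 3 pups, pups of both groups are labelled as given 40 µg of 4-hydroxytamoxifen under the skin on days P2, P3.5, P5 as well as P6.5, and the genotype of the control pups is not given in the sources used here. Cells were freed with collagenase and dispase and pulled out with antibody-coated beads against CD31, so the erythroid cells came along in a preparation selected for another surface protein. With 1 library per condition there was no replicate and no test, and every interval given is a 95% interval that covers counting error only.

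Erythroid cells carry oxygen on hemoglobin, a tetramer of alpha-like and beta-like globin chains that each hold a heme. During their last steps they silence most genes, expel the nucleus, and then, as reticulocytes in the blood, lose ribosomes and mitochondria while translating a shrinking store of long-lived messages. Alas2 encodes the erythroid enzyme that starts heme synthesis, and the Hba and Hbb genes encode the adult globin chains.

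The promoters of the genes that define the cells, and of Hbb-bt, the second adult beta-globin gene, are shown because the results turn on the balance among these transcripts. Each line gives the 250 bases before the annotated start of the gene on its own strand, from RefSeq on GRCm38.p6. Capitals mark matches on either strand to AGATAA or TGATAA (forms of the motif bound by the erythroid factor GATA1), CACCC (bound by KLF1 and related factors), CCAAT, and TATAA.
Hba-a1, chr11:32283422-32283671, plus strand: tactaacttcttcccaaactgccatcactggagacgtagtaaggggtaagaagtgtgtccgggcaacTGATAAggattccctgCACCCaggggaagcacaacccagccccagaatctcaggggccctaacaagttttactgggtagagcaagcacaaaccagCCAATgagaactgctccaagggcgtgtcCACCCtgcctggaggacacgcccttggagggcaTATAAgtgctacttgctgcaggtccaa
Hbb-bs, chr7:103827929-103828178, minus strand: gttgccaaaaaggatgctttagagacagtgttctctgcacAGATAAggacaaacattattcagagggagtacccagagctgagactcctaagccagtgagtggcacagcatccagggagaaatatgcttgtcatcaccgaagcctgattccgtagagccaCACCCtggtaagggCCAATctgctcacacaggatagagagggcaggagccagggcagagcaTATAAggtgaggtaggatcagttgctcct
Hbb-bt, chr7:103813924-103814173, minus strand: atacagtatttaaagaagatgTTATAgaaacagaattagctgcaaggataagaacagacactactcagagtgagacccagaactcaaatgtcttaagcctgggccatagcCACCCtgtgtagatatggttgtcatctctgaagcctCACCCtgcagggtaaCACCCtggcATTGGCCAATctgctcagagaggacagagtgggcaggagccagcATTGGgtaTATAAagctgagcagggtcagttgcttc
Alas2, chrX:150547167-150547416, plus strand: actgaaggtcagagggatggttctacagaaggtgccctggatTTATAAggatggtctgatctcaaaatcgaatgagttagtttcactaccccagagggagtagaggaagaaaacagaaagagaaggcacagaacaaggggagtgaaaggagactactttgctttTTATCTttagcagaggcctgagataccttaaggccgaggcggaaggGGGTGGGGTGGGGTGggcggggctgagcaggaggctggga

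Hba-a1 held TGATAA from 183 to 178 bases before its start, CACCC at 2 places, CCAAT from 88 to 84 bases and TATAA from 27 to 23 bases before it. Hbb-bs held AGATAA from 210 to 205 bases, CACCC from 90 to 86, CCAAT from 76 to 72 and TATAA from 29 to 25. Hbb-bt held neither GATA form in this window, and had CACCC at 3 places, TATAA at 2, and at 3 places CCAAT in either direction. Alas2 held AGATAA on the opposite strand from 86 to 81 bases and 3 copies of CACCC on the opposite strand within 40 bases of the start, and its TATAA matches overlapped each other. Of 32851 mouse promoter windows of the same length, 9.99% held AGATAA, 7.94% TGATAA, 52.0% CACCC, 33.9% CCAAT and 22.8% TATAA, so the short motifs are common and a match is only a description.

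The 2 genes of each globin pair are near copies, which bears on how far they can be counted apart. Hba-a1 (chromosome 11, 32283672 to 32284486, plus strand) and Hba-a2 (chromosome 11, 32296492 to 32297310) differed at 1 of 429 coding bases, and the 74 bases after the stop codon of the shorter one all matched the other. The libraries read the 3′ end of transcripts, so the division of reads between Hba-a1 and Hba-a2 is uncertain and their sum is used below. Hbb-bs (chromosome 7, 103826523 to 103827928, minus strand) and Hbb-bt (chromosome 7, 103812524 to 103813923) also differed at 1 of 444 coding bases, but after the stop codon they were only 70.2% identical, so 3′ reads can separate them. Reads that match both genes equally well are not counted by the software used, and how many alpha-globin reads were lost in this way was not tested.

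The steps of the rule left a clear gap. At least 1000 UMIs were held by 6586 control and 4277 Flcn iΔEC barcodes, of which 32 and 58 reached 20% hemoglobin; the Alas2 and Cdh5 conditions took 0 control and 3 Flcn iΔEC barcodes from these. No barcode lay between 2 and 20% hemoglobin. The highest share outside was 1.39% among control and 0.589% among Flcn iΔEC barcodes, and the lowest inside was 35.2% and 22.5%. Just outside for other reasons, a control barcode of 979 UMIs had 88.0% hemoglobin and 6 Alas2 UMIs. In the Flcn iΔEC library 1 barcode had 92.6% hemoglobin but 0 Alas2 UMIs, another had 36406 UMIs, 43.8% hemoglobin and 6 Cdh5 UMIs, and yet another had 96.9% hemoglobin with 1 Cdh5 UMI.

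**Figure D1:**
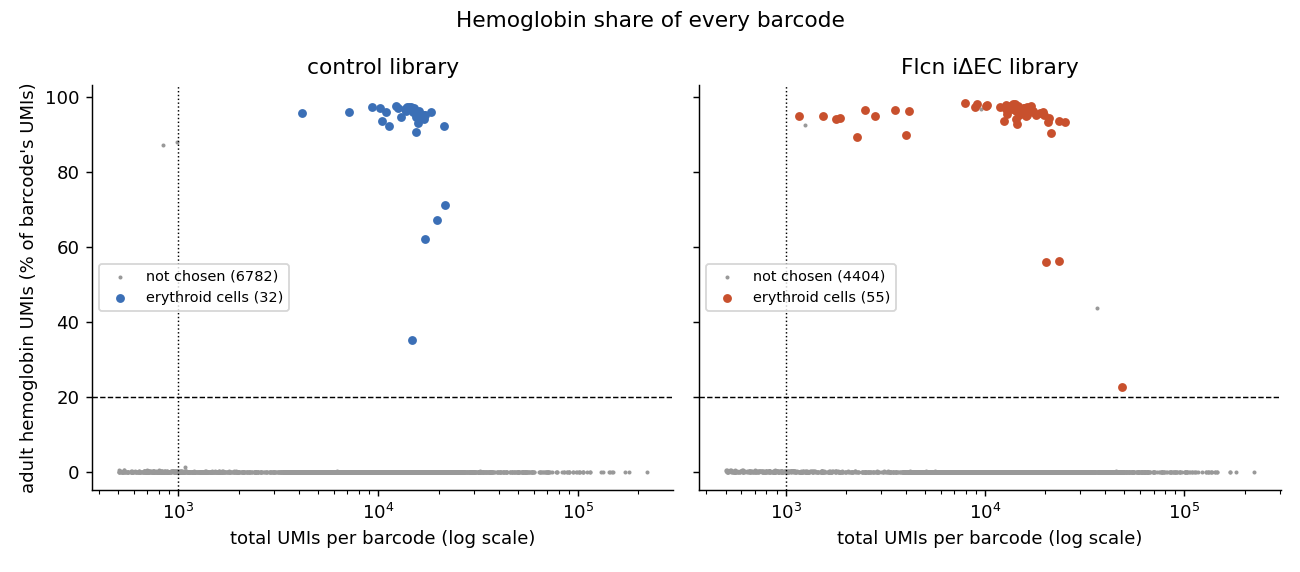
Hemoglobin share of each barcode (percent of its UMIs) against its total UMIs (log axis) in the control and Flcn iΔEC libraries, with 1 point per barcode, the erythroid cells coloured, and lines at 20% and at 1000 UMIs. The 32 and 55 erythroid cells sit at 22.5% or above, and the other barcodes at 1.39% or below except those that failed another condition of the rule.

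The libraries held 64639756 and 60805779 UMIs, with a median of 7283 and 8587 UMIs per barcode. They also differed in the sex-linked genes: Xist gave 9 UMIs among control and 63462 among Flcn iΔEC barcodes, and Y-linked genes 15535 and 17, so sex and genotype cannot be told apart. In the erythroid cells the same genes gave 0 and 19 Xist UMIs and 5 and 0 UMIs of Ddx3y and Eif2s3y. The 2 libraries had 6 barcode sequences in common, none of them an erythroid cell.

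Erythroid cells were 0.470% (exact interval 0.321 to 0.662) of the control barcodes and 1.23% (0.931 to 1.60) of the Flcn iΔEC barcodes, a ratio of 2.63 (1.67 to 4.20). The rest of the preparation differed as well. Endothelial cells, the target of the selection (at least 1 UMI each of Cdh5 and Pecam1), made up 9.61% and 21.3%, a ratio of 2.22 (2.0 to 2.45), and leukocytes (at least 1 UMI of Ptprc and 0 of Cdh5) 78.5% and 62.3%. Per 100 endothelial cells there were 4.89 erythroid cells for the control and 5.79 for Flcn iΔEC, a ratio of 1.19 whose interval of 0.753 to 1.89 included no difference. Per 100 leukocytes there were 0.598 and 1.98, a ratio of 3.31 (2.10 to 5.29). The higher share in the Flcn iΔEC library therefore depended on the denominator, and pups were pooled, so the spread between pups is unknown.

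The erythroid cells held nearly all the hemoglobin message of their library, 98.8% of hemoglobin UMIs among control and 95.6% among Flcn iΔEC barcodes, while holding only 0.709% and 1.25% of all UMIs. Of all Alas2 UMIs they held 97.6% and 95.1%.

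Total UMIs per erythroid cell had a median of 14808 in control (4149 to 21507) and 14235 in Flcn iΔEC cells (1163 to 48759). The median hemoglobin share was 95.9% and 96.1%, and the median number of genes detected was 226.5 and 181. Endothelial cells had a median of 14845 and 23372 UMIs, near that of the erythroid cells in the control and above it for Flcn iΔEC, and a median of 4158 and 5080 genes. Of the erythroid cells, 11 held under 5000 UMIs, 1 of 32 in control (3.13%, 0.0791 to 16.2) and 10 of 55 in Flcn iΔEC cells (18.2%, 9.08 to 30.9).

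Not all 87 barcodes held erythroid RNA alone. In 80 of them, 28 control and 52 Flcn iΔEC, hemoglobin was at least 80% of UMIs, and the range was in fact 90.8 to 97.7% and 89.4 to 98.3%. The other 7 barcodes, 4 and 3, lay between 22.5 and 71.2%, held 1813 to 5678 genes each, and contributed 61.6% and 66.9% of all non-globin UMIs of the erythroid cells. All but 1 of the 7 carried lymphocyte genes. In the control, 1 of 21507 UMIs had 19 UMIs of the T-cell receptor gene Trbc2 and 8 of Cd3g, and 1 of 19718 UMIs had 17 of Trbc2 and 12 of the pan-leukocyte gene Ptprc. Another control barcode had 10 UMIs of the B-cell gene Cd79a and 87 of Cd74, an antigen-presentation gene. In the Flcn iΔEC library, 1 had 10 Cd3g and 9 Trbc2 UMIs and another 11 Trbc2 and 5 Ptprc. The remaining Flcn iΔEC barcode, of 48759 UMIs and 5678 genes, held 160 UMIs of the epithelial gene Epcam, 69 of the keratin gene Krt8 and 0 of Ptprc.

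A single control barcode carried a broader erythroid program. It had 14762 UMIs, 35.2% hemoglobin and 2506 genes, and held 24 UMIs of Slc4a1, which encodes the anion exchanger band 3 of the red cell membrane, 12 of the transferrin receptor Tfrc, 13 of Ermap, 6 of Rhag and 49 of Car2. It also held 16 Trbc2, 9 Trac and 5 Ptprc UMIs. The doublet caller marked none of the 87 cells while marking 2.08% and 0.83% of all barcodes, and whether these 7 barcodes held more than 1 cell was not tested further. Because 7 barcodes hold most of the non-globin UMIs, gene levels are given below over the 80 hemoglobin-rich cells, a group chosen after the shares were seen, and library comparisons are given both ways.

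**Figure D2:**
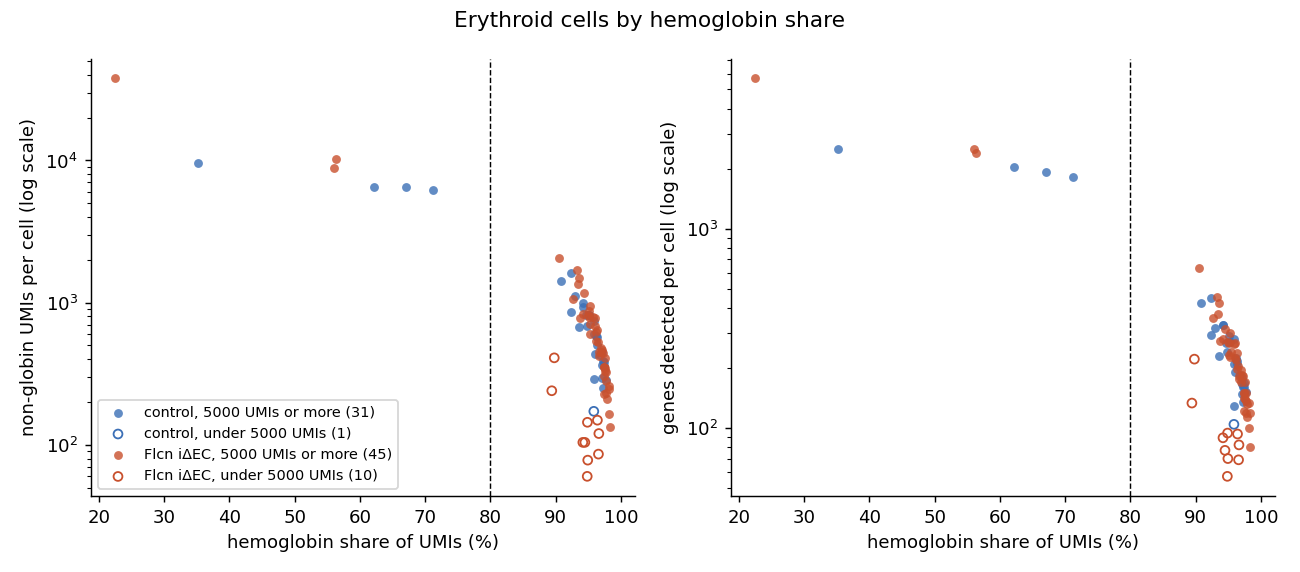
Each of the 87 erythroid cells, by its hemoglobin share of UMIs (percent) against its non-globin UMIs and its number of detected genes (log axes), coloured by library, with open points for cells under 5000 UMIs and a dashed line at 80%. The 80 hemoglobin-rich cells hold few genes, and the 7 cells under 80% hemoglobin hold 1813 to 5678 genes.

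The 80 hemoglobin-rich cells held little besides globin. Their non-globin UMIs had a median of 580 in control (172 to 1625) and 429.5 in Flcn iΔEC cells (60 to 2054), and they showed a median of 213 (104 to 449) and 178 (57 to 634) genes. Malat1, a long noncoding RNA kept in the nucleus, was nearly absent: 79 of the 80 cells held at most 4 UMIs, against a median of 369 and 555.5 UMIs in endothelial cells and 145 and 150 in leukocytes. The exception was 1 Flcn iΔEC cell with 166 Malat1 UMIs. Thinned to 1000 total UMIs per cell, Malat1 was seen in 3.57% and 11.5% of the hemoglobin-rich cells and in over 99% of endothelial cells, although most of the UMIs left in the former were globin, so the depth for other genes was not equal. Mitochondrially encoded transcripts made up a median of 3.22% and 2.67% of their non-globin UMIs, and ribosomal protein transcripts 8.51% and 9.69%.

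Marker genes of other cell types gave few UMIs in these 80 cells, which held few non-globin UMIs of any kind. The macrophage and platelet marker lists gave 0 UMIs in both libraries, the neutrophil and fibroblast lists 0 in control and 1 each in Flcn iΔEC cells, and the endothelial list 3 and 10. T-cell markers gave 2 and 3 UMIs, against 67 and 47 over all 87 cells, and B-cell markers 18 and 13, against 180 and 17. Pecam1, which encodes CD31, the protein used for selection, gave 0 UMIs in the 80 cells and 3 and 1 over the 87.

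The name of the cells was checked on erythroid genes that the rule had not used. Slc4a1 (chromosome 11, 102348820 to 102365281), the gene of band 3, gave 70 UMIs in the 28 control cells and 51 in the 52 Flcn iΔEC cells, against 3 and 1 UMIs in the 6554 and 4219 other barcodes of at least 1000 UMIs. Several genes of earlier erythroid stages were at or near 0 in the 80 cells: Klf1 gave 2 and 0 UMIs, Gata1 0 and 1, and the erythropoietin receptor gene Epor and the stem cell factor receptor gene Kit 0 in both. Of the other listed regulators, Lmo2, a partner of the GATA1 complex, gave 19 UMIs in 12 control cells and 14 in 13 Flcn iΔEC cells, and Foxo3 gave 0 and 7. Ahsp was not analysed here.

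The globin messages were counted deeply enough to compare their balance. Over all 87 cells the control library gave 81518 UMIs of Hba-a1, 59962 of Hba-a2, 222009 of Hbb-bs and 48252 of Hbb-bt, and the Flcn iΔEC library 141059, 96182, 355728 and 82860 in the same order. Alpha-globin was 34.4% (34.2 to 34.5) of hemoglobin UMIs in control and 35.1% (35.0 to 35.2) in Flcn iΔEC cells, so alpha-globin UMIs were 0.524 and 0.541 times those of beta-globin. Hbb-bt made up 17.9% (17.7 to 18.0) and 18.9% (18.8 to 19.0) of the beta-globin UMIs, Hbb-bs making up the rest. The intervals of the 2 libraries did not overlap, but they cover counting only, and with 1 library each the difference has no replicate check.

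Within the hemoglobin-rich cells the alpha share ran from 26.4 to 42.4% in control and from 29.3 to 42.9% in Flcn iΔEC cells, with an SD over cells of 3.40 and 3.01 percentage points where counting alone would give 0.432 and 0.593. The Hbb-bt share of beta-globin varied more. It ran from 8.47 to 22.0% in control (SD 3.11, counting 0.424) and from 1.87 to 28.0% in Flcn iΔEC cells (SD 5.36, counting 0.530). Among cells of at least 5000 UMIs the SD was 3.09 and 4.84, so the width of the Hbb-bt range was not confined to the small barcodes.

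**Figure D3:**
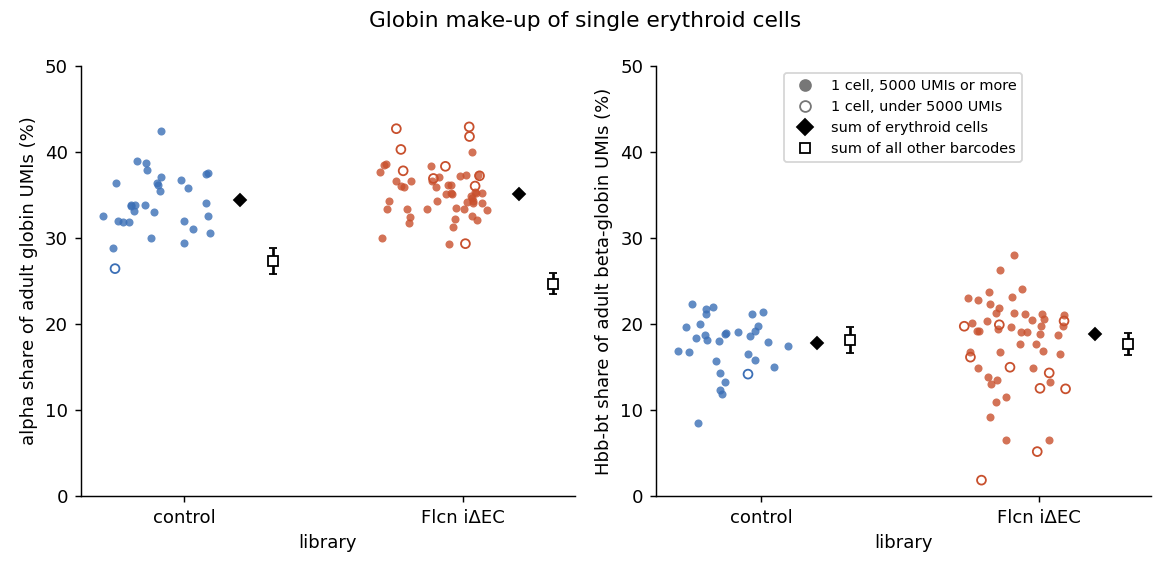
Globin balance of the 87 erythroid cells in the control and Flcn iΔEC libraries, as the alpha-globin share of hemoglobin UMIs (percent) and the Hbb-bt share of beta-globin UMIs (percent), with 1 point per cell (open under 5000 UMIs), and diamonds and squares with exact 95% intervals for the sums over erythroid cells and over all other barcodes. In the hemoglobin-rich cells the alpha shares of both libraries overlap (26.4 to 42.4% and 29.3 to 42.9%), and the Hbb-bt shares reach lower and higher in the Flcn iΔEC library (1.87 to 28.0%).

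Embryonic globins were all but absent. Hbb-y gave 2 and 0 UMIs and Hbb-bh1 0 and 1 over the 87 cells, and Hbb-bh2 and Hba-x gave 0. Hemoglobin UMIs outside the erythroid cells were sparse but had another balance. They numbered 0.530 and 0.761 per 10000 UMIs in the other barcodes, with an alpha share of 27.3% (25.9 to 28.9) among control and 24.7% (23.4 to 26.0) among Flcn iΔEC barcodes, below the 34.4 and 35.1% of the erythroid cells. Their Hbb-bt share was 18.1 and 17.6% with all barcodes and 15.7% (14.3 to 17.2) and 15.5% (14.3 to 16.8) without 1 barcode in each library that held 71 and 89 hemoglobin UMIs, below the 17.9 and 18.9% of the erythroid cells. In endothelial cells the hemoglobin level was 0.349 and 0.490 per 10000 UMIs and in leukocytes 0.585 and 1.02. At 1000 UMIs per cell, 4.28% and 4.63% of endothelial cells and 3.63% and 7.24% of leukocytes held an Hbb-bs UMI (36.6% and 55.5%, and 24.2% and 43.7%, without equal depth), and 0% of either held Slc4a1.

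Besides the globins, 20 genes were named as those highest in erythroid cells over all other barcodes, in CPM (UMIs per 1000000 non-globin UMIs), and the same 20 genes came first over the 87 cells and over the 80 hemoglobin-rich cells. All levels in this and the next paragraphs are of the 80 cells, control first. The first was Alas2, which the rule had used, with 33017 (30408 to 35789) and 34441 (32308 to 36679) CPM. Slc4a1 gave 3911 (3049 to 4941) and 1811 (1348 to 2381).

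Several of the 20 take part in heme and iron handling, the cytoskeleton or protein turnover. Fech, the last enzyme of heme synthesis, gave 7263 and 7421 CPM. Slc25a37, the mitochondrial iron importer mitoferrin, gave 5866 and 5148, and Epb41, the membrane skeleton protein 4.1, gave 8045 and 7208. Ubiquitin-pathway genes were Ube2l6, with 11397 and 13812 CPM, Ube2o, with 2514 and 2166, and Mkrn1, with 30503 and 29222. Bpgm, whose product makes the 2,3-bisphosphoglycerate that lowers the oxygen affinity of hemoglobin, gave 34860 and 35471. The carbonic anhydrase gene Car2 gave 8603 and 6107, and Gpx1, a glutathione peroxidase, 46592 and 34725. Interferon-responsive genes were there too: Rsad2, with 2514 and 3409 CPM, and Isg20, with 6145 and 4793. Fam220a gave 10559 and 10972 CPM and March2, a membrane-bound ubiquitin ligase, 6034 and 7492.

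Of the heme synthesis genes, Alas2 was found in all 28 and 52 cells, with a median of 20.5 UMIs (3 to 38) in control and 18.5 (1 to 39) in Flcn iΔEC cells. Fech gave 130 and 209 UMIs and the mitochondrial carrier Slc25a39 69 and 134. Urod, which acts between Alas2 and Fech, was scarcer in UMIs, which at the 3′ end count transcripts whatever their length: it gave 22 and 37 UMIs.

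Of the iron genes, those of storage outnumbered that of uptake. Ftl1 and Fth1, which encode the ferritin light and heavy chains, gave 594 and 1382 UMIs and 344 and 557 UMIs. Tfrc, the receptor through which erythroid precursors take up transferrin iron, gave 0 and 3. Glrx5, which serves iron-sulfur cluster assembly, gave 52 and 92, and Ncoa4, the receptor that hands ferritin to autophagy, 2 and 13.

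Of the membrane genes, few were well represented. Beside Slc4a1 and Epb41, Mpp1, a palmitoylated skeleton protein, gave 54 and 63 UMIs. Epb42, protein 4.2, gave 6 and 5 UMIs and the blood group gene Rhd 6 and 6. Rhag, Aqp1, Dmtn, Icam4, Xk, Slc2a1 and Piezo1 gave 0 in all 80 cells.

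Some genes tied to late maturation were well represented, while others were at or near 0. Besides Bpgm and Mkrn1, Bnip3l, the receptor by which reticulocytes clear mitochondria, gave 255 and 384 UMIs, Bcl2l1, which keeps late erythroid cells alive, 24 and 45, and Ube2h, a ubiquitin-conjugating enzyme, 34 and 70. Alox15, Trim58, Ypel4 and Ulk1 gave 0. Few UMIs came from Xpo7 (2 and 7), Fbxo7 (1 and 2), Hemgn (2 and 1), Cpeb4 (0 and 4) and Ranbp10 (2 and 4). The autophagy genes Gabarapl2, with 143 and 261 UMIs, and Map1lc3b, with 109 and 176, were also present. They were the only 2 of 12 listed autophagy genes with at least 50 summed UMIs. Among redox genes, Prdx2, an abundant red cell peroxidase, gave 354 and 456 UMIs, Blvrb, a biliverdin reductase, 97 and 144, Cat, catalase, 11 and 30, and Car1 and Hmox1 0.

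Cell cycle genes were represented by 1 transcript. Ube2c, a ubiquitin-conjugating enzyme that works with the anaphase-promoting complex, held 78 of the 84 cell cycle UMIs of the control cells and 124 of the 139 of the Flcn iΔEC cells, and Mki67 gave 0 and 1. The 19 and 31 cells with such UMIs had more non-globin UMIs, a median of 747 and 682, than the 9 and 21 without, at 294 and 231. A cell with more non-globin UMIs is more likely to show such a UMI, so no conclusion is drawn from this difference.

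Flcn itself could not be checked in these cells. Flcn and Tfe3, a transcription factor that folliculin keeps out of the nucleus, gave 0 UMIs in all 87 cells, and the whole list of folliculin partners and targets gave 4 and 12 UMIs over the 87 and 0 and 1 over the 80. At this depth neither the presence nor the absence of the Flcn message could be shown, and Cre was driven by an endothelial promoter, so the erythroid cells were not the intended site of the deletion.

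The hemoglobin-rich cells could be set in order by how much of their RNA was hemoglobin. The 69 cells of at least 5000 UMIs were divided, after their values were seen, into bands of 80 to 95%, 95 to 97% and 97 to 100% hemoglobin, with 9, 10 and 8 control cells and 9, 16 and 17 Flcn iΔEC cells. Non-globin UMIs per cell were 1016, 581 and 346 in the control bands and 1254, 644 and 299 in the Flcn iΔEC bands. The share of non-globin UMIs is the complement of the band itself, so the results that follow are levels in CPM, which tell how the remaining messages were divided, and they remain descriptions of cells of 1 library each.

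Of 110 genes with enough UMIs, 24 (21.8%) were more than 2-fold lower in the 97 to 100% band than in the 80 to 95% band in both libraries and 9 (8.18%) more than 2-fold higher in both. Car2 was among the lower ones. It gave 115, 36 and 3 UMIs in the 3 control bands and 90, 70 and 1 in the Flcn iΔEC bands, that is 12572 (10380 to 15091) CPM in the lowest and 1084 (223.6 to 3169) in the highest band of the control, and 7977 (6415 to 9805) and 197 (4.99 to 1097) for Flcn iΔEC. The intervals of the lowest and highest bands did not overlap in either library.

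Membrane, other redox and cell cycle genes were lower too. Slc4a1 gave 54, 13 and 2 UMIs in the control bands and 35, 9 and 2 in the Flcn iΔEC bands. Gpx1 gave 514, 275 and 32 UMIs in the control, or 57.1 per cell in the lowest and 4.00 in the highest band, and 495, 406 and 45 in the Flcn iΔEC library, or 55.0 and 2.65 per cell. Of the listed genes with enough UMIs, 3 of 4 membrane genes, 4 of 5 redox and carbonic anhydrase genes and the only cell cycle gene, Ube2c, were lower in both libraries, against 21.8% of all genes. Of the 2 surface genes with enough UMIs, 0 were lower and 0 higher. Of the maturation genes 1 of 11 was lower and 0 were higher, and Hagh was that one. Prdx2, another of the lower redox genes, gave 229, 116 and 8 UMIs in the control bands and 254, 161 and 39 in the Flcn iΔEC bands, and Blvrb was lower as well.

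Alas2 and ferritin went the other way in CPM but not in the same manner per cell. Since the rule used Alas2, its values describe the chosen cells. Alas2 was 26347 (23126 to 29892) CPM in the lowest and 54933 (46547 to 64393) in the highest control band, and 21627 (18999 to 24518) and 59090 (52592 to 66169) in the Flcn iΔEC bands. Per cell, however, it was 26.8 and 19.0 UMIs in control and 27.1 and 17.7 in Flcn iΔEC cells, lower in the highest band in both. Ftl1 was 19351 and 69751 CPM in control and 24021 and 83514 in Flcn iΔEC cells, with 19.7 and 24.1 UMIs per cell in control and 30.1 and 24.9 in Flcn iΔEC cells. Of the 2 heme genes with enough UMIs besides Alas2, Slc25a39 was higher in both libraries and Fech was not, and of the 4 iron genes 1, Ftl1, was higher and 1, Glrx5, lower, against 8.18% higher and 21.8% lower among all genes. The other genes called higher in CPM in both libraries were Rpl41, Riok3, Fam220a, Gnas, Rpl13 and Cox6c. Per cell, Slc25a39 and all of these except Cox6c had fewer UMIs in the highest than in the lowest band of both libraries. Cox6c had more per cell in the control and fewer in the Flcn iΔEC library. The control intervals of the ratio included 1 for Rpl13 (0.731 to 5.295) and Slc25a39 (0.972 to 3.91). Bpgm had similar levels in CPM in the lowest and highest bands, with ratios whose intervals (0.908 to 1.47 in the control and 0.772 to 1.13 for Flcn iΔEC) included 1. Its UMIs per cell in these bands were 30.4 and 12 in the control, and 41.1 and 9.18 for Flcn iΔEC.

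Ribosomal protein transcripts were 8.16, 7.67 and 12.1% of non-globin UMIs across the control bands and 7.67, 8.78 and 12.1% across the Flcn iΔEC bands, and 2 of 19 such genes were called higher, a share near the 8.18% of all genes. Mitochondrially encoded transcripts showed no order, with 4.02, 2.96 and 4.37% and 2.59, 2.45 and 3.39%. The globin balance also moved little with the bands: the alpha share was 33.8, 34.1 and 35.8% in control and 34.4, 35.1 and 35.5% in Flcn iΔEC cells. The Hbb-bt share of beta-globin was highest in the lowest band of both libraries, at 19.4, 17.1 and 17.2% and 21.2, 19.3 and 17.0%. Mean total UMIs per cell were highest in that band too, at 15065 in control and 18782 in Flcn iΔEC cells. Over the cells of the bands, the Spearman rank correlation of the Hbb-bt share with hemoglobin share was -0.27 and -0.31. With total UMIs it was 0.094 and 0.58, and the 2 relations were not separated.

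**Figure D4:**
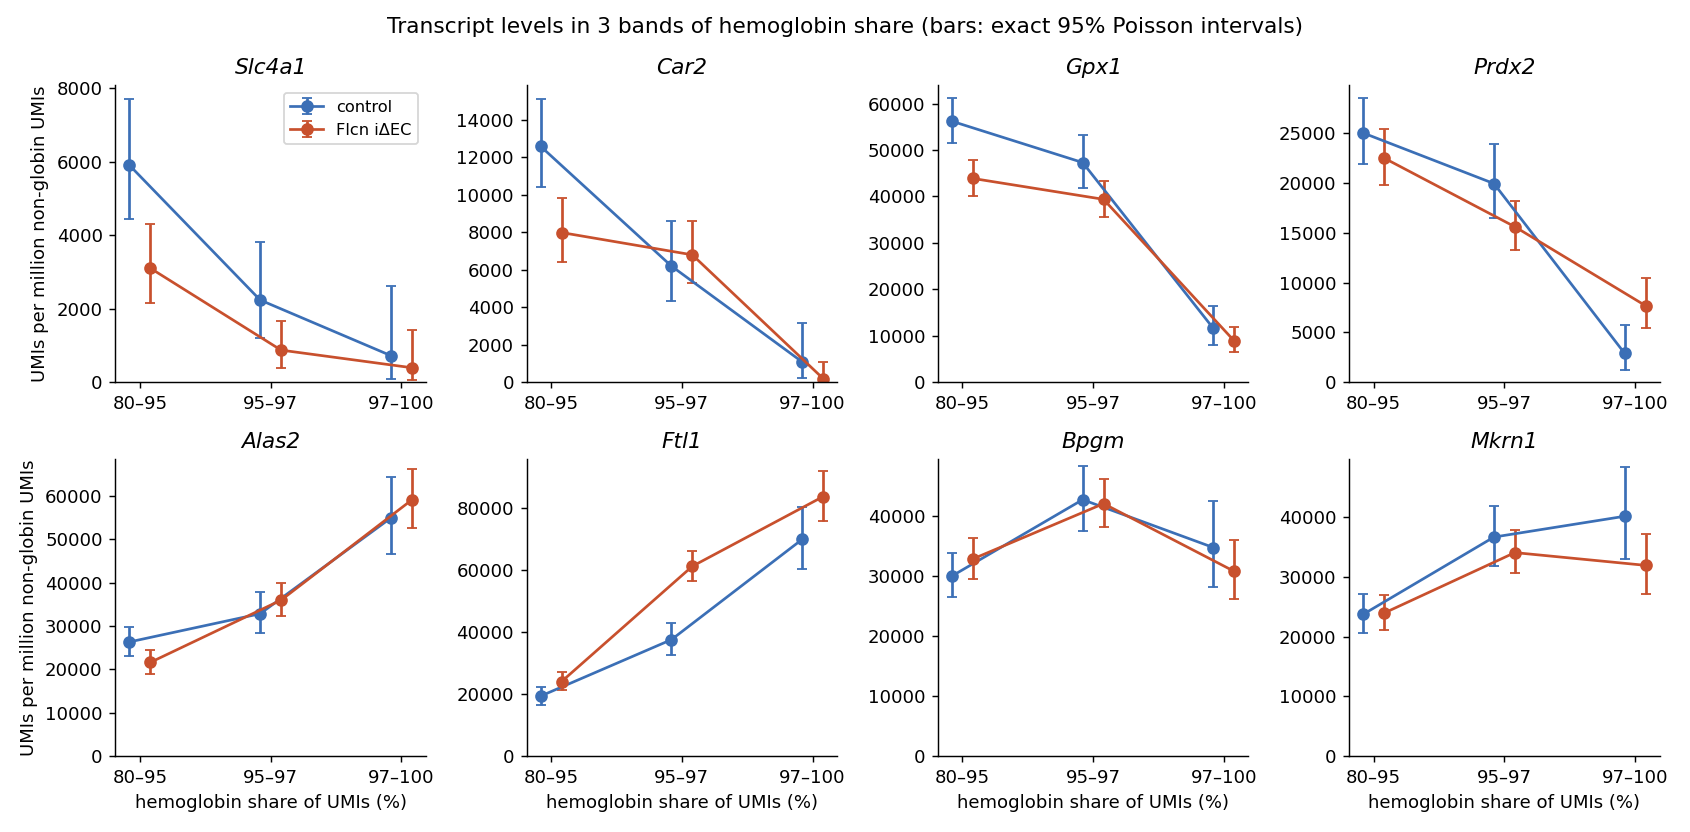
Levels of Slc4a1, Car2, Gpx1, Prdx2, Alas2, Ftl1, Bpgm and Mkrn1 (CPM, UMIs per 1000000 non-globin UMIs) in the 3 bands of hemoglobin share in the control and Flcn iΔEC libraries, with bars for exact 95% intervals of counting error. Car2 goes from 12572 and 7977 in the lowest band to 1084 and 197 in the highest, while Ftl1 goes from 19351 and 24021 to 69751 and 83514.

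Between the libraries, most genes that were higher in Flcn iΔEC over all 87 cells had most of their UMIs in single barcodes. Of 315 genes with at least 50 summed UMIs, 40 (12.7%) were more than 2-fold higher and 13 (4.13%) more than 2-fold lower in the Flcn iΔEC library, in CPM. Of the 40 higher genes, 38 had at least 50% of their Flcn iΔEC UMIs in 1 barcode. Epcam had 160 of 160 UMIs, Mt1 133 of 134 and Oat 107 of 109 in the barcode that held epithelial genes, and Krt8, Lgals4, Mt2, Dbi, Hspd1 and Txn1 were also among the 10 most different. Of the 13 lower genes, 3 had at least 50% of their control UMIs in 1 barcode. Cd74 had 87 of its 97 control UMIs in the barcode with B-cell genes, and Trbc2, Cd52, Btg1 and Psme3 stood beside Isg15, Smox, Slc4a1, Rec114 and Car2. Only 1 of the 40 higher genes still had 50 summed UMIs in the 80 hemoglobin-rich cells, and it was not past 2-fold there.

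In the 80 hemoglobin-rich cells few genes passed 2-fold between the libraries. Of 134 genes, 6 (4.48%) were more than 2-fold higher and 4 (2.99%) more than 2-fold lower in the Flcn iΔEC cells, and the median log2 ratio was 0.02. Levels are shares of each library's own non-globin UMIs, so a median near 0 does not show that the libraries were alike. Some genes short of 2-fold had intervals away from 1, in both directions. Examples are Eif1 at 0.565 (0.454 to 0.703), Gpx1 at 0.745 (0.679 to 0.818) and Rpl41 at 1.60 (1.31 to 1.97). Malat1 gave 17 and 206 UMIs, a ratio of 7.70 (4.69 to 13.5), but 166 of the UMIs were in 1 cell, and without the cell that held the most of it in each library the ratio was 1.73 (0.936 to 3.38). Over all 87 cells Malat1 had gone the other way, with a log2 ratio of -1.01. The ribosomal protein genes Rpl10, with 10 and 52 UMIs (ratio 3.31, 1.66 to 7.29), Rpl19, with 12 and 43, and Rpl27a, with 15 and 51, the respiratory subunit gene Cox6c, with 13 and 57 UMIs (2.79, 1.51 to 5.55), and the nucleotidase gene Nt5c3, with 13 and 46, were the other higher ones. Ribosomal protein genes as a class were not higher: 27 were tested, with a median log2 ratio of 0.07 and values from -0.6 to 1.6. Only these 3 of them passed 2-fold. Of the Nt5c3 UMIs of the Flcn iΔEC cells 19 were in 1 cell, and the ratio without the richest cell of each library was 1.77 (0.828 to 4.09). Its log2 ratio was 2.18 in the lowest band, from 6 and 38 UMIs. In the others it was -0.63 from 6 and 7 UMIs (interval of the ratio 0.189 to 2.37) and -0.88 from 1 and 1 (0.00694 to 42.8). Those counts are too few to give a direction. The higher genes named here rest on few UMIs in the control cells.

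Among the 4 lower genes, Slc4a1 had the most UMIs. It was seen in 19 of 28 control cells (67.9%, 47.7 to 84.1) with a median of 1 UMI (0 to 9), and in 21 of 52 Flcn iΔEC cells (40.4%, 27.0 to 54.9) with a median of 0 (0 to 10). The values of the cells overlapped between the libraries. Its level was 0.463 times that of the control (0.316 to 0.674), 0.424 (0.278 to 0.640) without the cell that held the most UMIs of it in each library and 0.443 among cells of at least 5000 UMIs. In the lowest band its log2 ratio was -0.91, from 54 and 35 UMIs (interval of the ratio 0.333 to 0.819). The middle band gave -1.31 from 13 and 9 UMIs (0.147 to 0.987). The highest gave -0.88 from only 2 and 2 UMIs (0.0395 to 7.52), too few to give a direction. At 1000 UMIs per cell Slc4a1 was seen in 17.9% (6.06 to 36.9) of the control and 7.69% (2.14 to 18.5) of the Flcn iΔEC cells, with overlapping intervals.

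The other lower genes rested on fewer UMIs. Smox, spermine oxidase, gave 34 and 16 UMIs (0.299, 0.154 to 0.557), with log2 ratios of -1.70 and -1.56 in the first bands. In the band of 97 to 100% the log2 ratio was 0.45, but from only 1 and 4 UMIs (interval of the ratio 0.216 to 107). Isg15, an interferon-induced ubiquitin-like protein, gave 57 and 21 UMIs (0.234, 0.135 to 0.392), with 34 of the control and 15 of the Flcn iΔEC UMIs in 1 cell each, and a ratio of 0.172 (0.0573 to 0.435) without those cells. Rec114 gave 31 and 23 (0.472, 0.263 to 0.835). Car2 reached 0.710 (0.568 to 0.888), and 0.819 (0.636 to 1.06) without its largest cells.

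Most listed genes stood near the median of all genes once the 7 other barcodes were set aside. The median log2 ratio of the 4 heme genes, with Alas2, which the rule used, among them, was -0.30 over the 87 cells and 0.07 over the 80, that of the 11 maturation genes -0.29 and 0.02, of the iron genes -0.26 and 0.10, of the membrane genes -0.67 and -0.33, and of the redox genes -0.56 and -0.29, against -0.02 and 0.02 for all genes tested. Ftl1 was higher, at 33184 and 49070 CPM (ratio 1.48, 1.34 to 1.63), and its interval lay above 1 in each band of hemoglobin share, but it did not pass 2-fold.

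**Figure D5:**
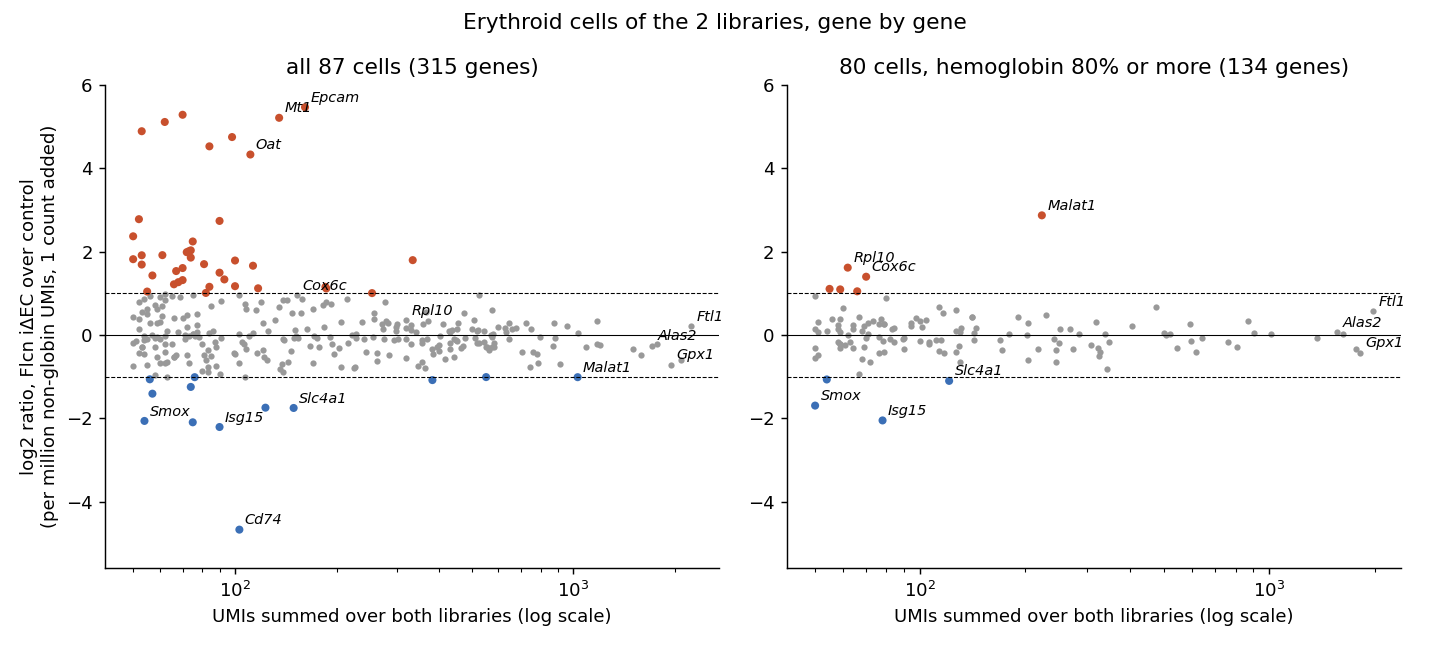
Log2 ratio of Flcn iΔEC to control levels (CPM, UMIs per 1000000 non-globin UMIs) with 1 count added, against UMIs summed over both libraries (log axis), with 1 point per gene and dashed lines at 2-fold, over the 87 erythroid cells and over the 80 hemoglobin-rich cells. Over the 87 cells 40 of 315 genes are past 2-fold higher and 13 lower, and over the 80 cells 6 and 4 of 134.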

How the data were processed

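Single-cell RNA sequencing libraries of mesenteric CD31+ cells were made with the Chromium 3′ v3 chemistry. Per the labels, the authors used Cell Ranger 3.0 with the mm10 mouse genome and deposited 1 matrix of UMI counts per library, with no normalization. The counts were used as deposited, over every barcode given. The rule for erythroid cells, the gene lists and the comparisons were chosen with earlier results of these data known, so no list here is independent evidence.

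For each library, the UMIs of a group's cells were added up and given as CPM, per 1000000 non-globin UMIs, where globin means the 4 adult genes. Shares carry exact Clopper-Pearson intervals, levels exact Poisson intervals and ratios exact conditional intervals, all at 95% and for counting error only; cells were never treated as replicates and no p-value was computed. The log2 ratio of Flcn iΔEC to control had 1 count added and used genes with at least 50 summed UMIs, and past 2-fold was the call. In the bands of hemoglobin share, genes needed at least 60 summed UMIs. Cells were thinned once to 1000 UMIs with a fixed seed to compare shares of cells with a UMI. Endothelial cells held at least 1 UMI of Cdh5 and of Pecam1, and leukocytes at least 1 of Ptprc and 0 of Cdh5, with under 20% hemoglobin in both. UMIs at the 3′ end count transcripts, so no length scaling was used.

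Genes were named by rule: those of the lists, the 10 largest ratios each way between libraries, and the 20 largest ratios of erythroid cells over other barcodes among genes with at least 100 summed UMIs; some of the genes so named are not reported here, though they enter the counts and medians. The sets of 80% hemoglobin or more and of 5000 UMIs or more, the bands, and leaving out the cell richest in a gene were chosen after seeing the data. The calculations were tested on simulated data. Doublets were called with Scrublet in Scanpy 1.11.5 and none was removed. Other steps used Python 3.11.15, NumPy 2.4.6, SciPy 1.17.1, pandas 2.3.3 and Matplotlib 3.10.9. Promoters came from RefSeq and gene positions from an annotation of the same build. Other hemoglobin, UMI and summed-UMI minimums, another added count and other denominators were tried as alternatives.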

Additional observations from a re-analysis of the deposited data

How the results depend on the processing

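The depth of these cells limits what can be said: outside the globins a hemoglobin-rich cell held a median of 580 UMIs in control and 429.5 in Flcn iΔEC cells, and each condition had 1 library of pooled pups, so no spread between pups is known. No paired analysis was possible because each condition had 1 library. Leaving aside the alternatives added after seeing the data, 131 values that answer a comparison were labelled as kept, and 21 as moved. Shares were kept when within their counting interval and counts of genes when within 1.5 times. The median over all genes had a set margin, and medians of gene lists a margin taken from the counting intervals of their genes. A minimum of 10% hemoglobin and removal of called doublets left the same 32 and 55 cells. Values under those settings could not move, so the 131 overstates the stability. The counts of genes and the medians of gene lists moved most. With hemoglobin of at least 40%, 5 genes were higher and 6 lower, and the median log2 ratios were 0.32 for heme, 0.28 for iron, -0.024 for membrane, 0.25 for maturation and 0.074 for redox genes. Without the Cdh5 condition, the alpha share of the Flcn iΔEC cells was 35.0%, 21 genes were lower and the maturation median was -0.57. Per 1000000 of all UMIs, 8 genes were lower and the median over all genes was 0.11. With at least 20 summed UMIs, 152 genes were higher and 71 lower, and the median was 0.087; with at least 100, 11 were higher and 6 lower. After thinning to 1000 UMIs, 18 genes could be compared, of which 0 were higher and 1 lower, with a median of 0.089 over all genes and 0.10 over maturation genes. Among the alternatives added after seeing the data, 80% hemoglobin gave 6 genes higher and 4 lower, medians of 0.065 for heme, 0.10 for iron and 0.024 for maturation genes, and a log2 ratio of 2.87 for Malat1, the reverse of -1.01 over the 87 cells. At 5000 UMIs the Hbb-bt share of the Flcn iΔEC cells was 19.0%. The Malat1 value rests on 1 cell, and for the 40% and 80% settings some or all of the barcodes with lymphocyte or epithelial genes were left out by construction. The cause of the other differences was not tested.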
